A study of Mus musculus with 38 samples.

Results

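The genes described are Ltbp2, Tgfbi, Fbn1, Fbln1 and Skil, 5 genes of transforming growth factor beta (TGF-beta) signalling and of the microfibril matrix, taken by RefSeq accession from 21618 distinct probes on the arrays, of which 6518 carried a gene symbol. Each gene had 1 probe printed in 1 spot. Entrez Gene identifiers are 16997 for Ltbp2, 21810 for Tgfbi, 14118 for Fbn1, 14114 for Fbln1 and 20482 for Skil. RNA came from the spleen of male mice aged 10 to 14 wk by the labels, although the methods of the study state a younger range. Mice received a single dose of 10 rad X-rays, or a sham exposure, and spleens were taken after 3.5 hr. A total of 38 two-colour arrays were hybridised, each with RNA of 1 irradiated and 1 sham-exposed mouse of the same strain. The strains, spelled as in the labels, were A/J, B6.C and BalbxJ with 8 arrays each, C3H with 6, and BI6Jx and DBA/2J with 4 each, with equal numbers of arrays in each dye orientation within a strain. The study names BI6Jx, BalbxJ and C3H as C57Bl6/J, Balb/C and C3H/HeJ. Pairs of mice were hybridised again with the dyes swapped, but which arrays belong to the same pair cannot be read from the labels, so p-values taken over arrays are too small and the strain served as the unit of replication where possible.

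TGF-beta is secreted in a latent complex that is bound to microfibrils of the extracellular matrix and must be released before it reaches its receptors. The activated receptors phosphorylate Smad proteins, which enter the nucleus and switch target genes on or off. In the spleen, TGF-beta restrains lymphocyte activation, and the matrix is laid down by reticular fibroblasts and by smooth muscle of the capsule and vessels. Among the 5 genes, Fbn1 encodes fibrillin-1, the backbone of microfibrils. Ltbp2 encodes a microfibril protein of the latent TGF-beta binding protein family that does not itself bind latent TGF-beta. Fbln1 encodes fibulin-1, a glycoprotein of elastic fibres and basement membranes. Tgfbi encodes a secreted adhesion protein first found as a TGF-beta-induced gene. Skil encodes SnoN, a corepressor that binds Smads and limits their output, and is itself a TGF-beta target.

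Because Ltbp2 and Tgfbi were the most correlated pair over arrays, their upstream sequences are shown. Each is the 250 bases before an annotated RefSeq start in GRCm38.p6, 5′ to 3′ on the strand of the gene. Capitals mark CAGAC, a core Smad-binding element, or its reverse complement GTCTG. The Ltbp2 sequence is chr12:84876492-84876741 on the minus strand and the Tgfbi sequence is chr13:56609336-56609585 on the plus strand. The annotated Ltbp2 gene reaches to 84876558, so a part of the Ltbp2 window lies within the gene.
Ltbp2: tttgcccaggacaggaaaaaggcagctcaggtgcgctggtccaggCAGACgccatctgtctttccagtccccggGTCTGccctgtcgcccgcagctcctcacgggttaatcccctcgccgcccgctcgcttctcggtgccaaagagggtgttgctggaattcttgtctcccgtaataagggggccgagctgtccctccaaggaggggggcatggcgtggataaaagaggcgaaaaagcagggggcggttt
Tgfbi: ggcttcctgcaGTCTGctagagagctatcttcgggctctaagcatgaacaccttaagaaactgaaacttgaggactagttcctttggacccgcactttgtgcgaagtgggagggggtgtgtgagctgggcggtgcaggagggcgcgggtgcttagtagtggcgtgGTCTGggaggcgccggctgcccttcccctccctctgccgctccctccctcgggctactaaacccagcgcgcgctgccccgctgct
The Ltbp2 sequence holds 1 CAGAC and 1 GTCTG, and the Tgfbi sequence holds 2 GTCTG. One or the other motif occurs in 42.2% of 32851 promoter windows of the same length, so its presence is common. The window of Fbn1, which also overlaps its annotated gene, holds 0 matches. The windows of both annotated Fbln1 starts overlap each other and hold the same 2 GTCTG. GC content is 61.6% for Ltbp2 and 62.4% for Tgfbi, above the median of 52.4% over all windows. A match of letters is a description and does not show that a Smad binds there.

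The deposited values are signed scores, and neither their scale and log base nor which dye is the numerator is stated. Each array was centred on its median, which ran from -3.16 to 3.95, and scores of arrays with irradiated RNA in Cy3 were multiplied by -1 (turned scores). A positive turned score therefore means more transcript in irradiated spleen only if the scores are Cy5 over Cy3. Under that reading the sign of Ltbp2 below is opposite to the direction the study describes for it. The values are ratios and give no level, so the tissue label could not be checked against its markers. Of the markers on the arrays, 7 of 7 for B cells, 5 of 6 for T cells and 5 of 5 for erythroid cells had enough values to be tested, but so had 10 of 11 for pancreatic acinar cells. Arrays 50 and 53 (B6.C) and 97 (BI6Jx) ran against 4, 3 and 8 other arrays of their own dye orientation, with r below -0.3 over all probes, and their direction is not settled. The arrays are used as labelled, and for B6.C, BI6Jx and the mean over strains the values with the signs of these 3 turned are given with each gene. Arrays 34 (DBA/2J), 35 and 36 (BalbxJ) had a long upper tail, with a 95th percentile of centred scores between 3.63 and 5.02, against at most 3.02 on the other arrays. All 6 C3H arrays had a long lower tail, with a 5th percentile between -5.20 and -2.43. For BalbxJ, DBA/2J and the mean over strains, values without arrays 34, 35 and 36 are given with each gene, and C3H values are given without single arrays. Of the 9 lists of cell type markers, that of pancreatic acinar cells stood furthest from 0 in the mean over strains. All 10 of its tested genes lay below 0, against 50.5% of all tested probes at or below 0, with 5 at an unadjusted p under 0.05 in limma (7.57% of all probes) and a median of -0.51. In C3H its median was 0.18. Its median score ran from -4.11 to 2.29 over arrays and its r with the 5 genes from -0.14 to 0.23. Its part in the results was not tested. In C3H the list furthest from 0 was that of smooth muscle of capsule and vessels, with 5 tested genes and a median of -0.80.

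Over the 6 strains, Ltbp2 had the highest mean response of the 5 genes and Fbln1 the lowest on the Cy5 over Cy3 reading, and none passed the test. On the opposite reading the sign of every score and response below is reversed, as are this order and ranks among probes. Correlations keep their sign. The response of a strain is the mean of its Cy5 average and its turned Cy3 average, in score units. Ltbp2 averaged 0.55 (SE 0.23, n = 6 strains), above 97.2% of the probes tested. Tgfbi averaged 0.34 (SE 0.19), Fbn1 0.27 (SE 0.22), Fbln1 -0.21 (SE 0.19) and Skil -0.03 (SE 0.29). For comparison, the middle of all tested probes was at 0.00 and their 5th and 95th percentiles were at -0.36 and 0.46. In limma, 0 of 17526 probes passed a Benjamini-Hochberg adjusted p under 0.05 (0%), and 1326 had an unadjusted p under 0.05 (7.57%). Adjusted limma p-values were 0.610 for Ltbp2 and Tgfbi, 0.676 for Fbn1, 0.694 for Fbln1 and 0.978 for Skil, and Ltbp2 alone of the 5 had an unadjusted p under 0.05 (0.0405). Exact two-sided sign-flip permutation tests over 6 strains, which cannot go below 0.03125, gave 0.125 for Ltbp2, 0.219 for Tgfbi, 0.469 for Fbn1, 0.438 for Fbln1 and 1 for Skil. In bulk spleen RNA, a change in the number of expressing cells and a change in RNA per cell cannot be told apart.

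**Figure D1:**
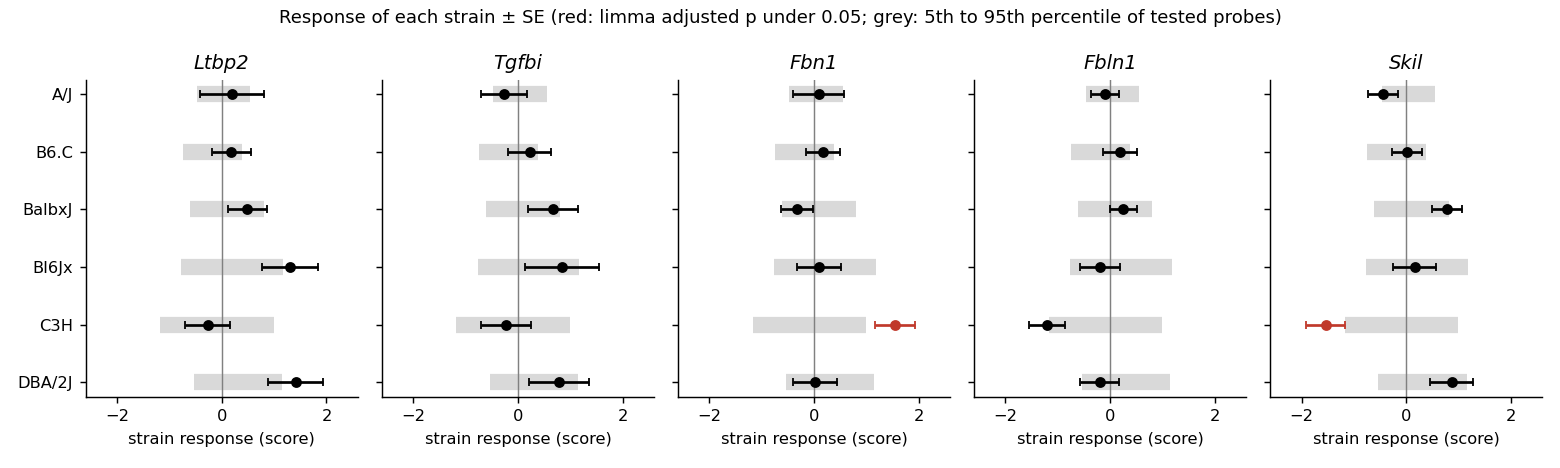
Response of each strain (x axis, score units, turned and centred as above, with the direction not settled) for each gene, as points with the standard error of the limma fit over 38 arrays, with red points for an adjusted p under 0.05 and grey bars for the 5th to 95th percentile of all tested probes in that strain. Only Fbn1 (1.55) and Skil (-1.54) in C3H are red, and Ltbp2 lies beyond the grey bar in BI6Jx (1.30) and DBA/2J (1.41).

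Ltbp2 was measured on 34 arrays, with a lowest turned score of -1.96, a median of 0.22 and a highest of 4.31. It lay above 0 on 21 arrays and below on 13. By strain, the response was 0.19 in A/J, 0.18 in B6.C, 0.49 in BalbxJ, 1.30 in BI6Jx, -0.27 in C3H and 1.41 in DBA/2J, so 5 of 6 strains were on the positive side. The 4 DBA/2J arrays scored 1.89 and 1.86 with the irradiated RNA in Cy5 and 1.65 and 0.24 with it in Cy3. They were all above 0, the lowest being array 70. In BI6Jx the scores were 2.48 and 1.11 in Cy5 and 2.35 and -0.74 in Cy3. The 2.35 comes from array 97, whose direction is not settled, and without it the BI6Jx response was 0.53, or 0.13 with the signs of arrays 50, 53 and 97 turned. Both strains had an unadjusted limma p under 0.05 (0.0134 in DBA/2J and 0.0214 in BI6Jx), as had 9.02% and 10.1% of 14513 probes in these strains, and adjusted limma p-values were 0.411 and 0.414. In BalbxJ the 8 scores ran from -0.88 to 4.31 with a median of -0.27. The 2 highest were arrays 36 (4.31) and 35 (1.89), and leaving out arrays 34, 35 and 36 moved the response of BalbxJ from 0.49 to -0.35. In A/J only 1 array with irradiated RNA in Cy5 had a value. The DBA/2J response was 1.40 without array 34. Across all strains Ltbp2 averaged 0.41 without arrays 34, 35 and 36, 0.45 without arrays 50, 53 and 97 and 0.39 with the signs of these turned, when B6.C was at 0.37.

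Tgfbi was also measured on 34 arrays, with turned scores from -2.61 through a median of 0.10 to 4.06, and 19 above 0 against 15 below. Its strain responses were -0.27 in A/J, 0.23 in B6.C, 0.67 in BalbxJ, 0.84 in BI6Jx, -0.23 in C3H and 0.78 in DBA/2J. The 3 strains with the highest values are also the 3 highest for Ltbp2, and none had an unadjusted limma p under 0.05. The 3 highest scores over all arrays were 4.06 (array 36), 4.02 (array 34) and 3.54 (array 35), the arrays with the long upper tail. Without these 3 arrays the mean over strains was 0.01 in place of 0.34, the BalbxJ response was -0.64, and the DBA/2J response was 0.14 in place of 0.78. In B6.C, by contrast, the 8 scores lay between -0.22 and 0.52 with a median of 0.24, the narrowest range of any strain for this gene. In BI6Jx only 3 arrays had a value, 1.90 in Cy5 and 2.18 and -2.61 in Cy3, which span most of the range seen over all strains. Without array 97 the BI6Jx response was -0.36, and with the signs of arrays 50, 53 and 97 turned it was -0.25, that of B6.C 0.07 and the mean over strains 0.13. The mean was also 0.13 without these arrays.

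**Figure D2:**
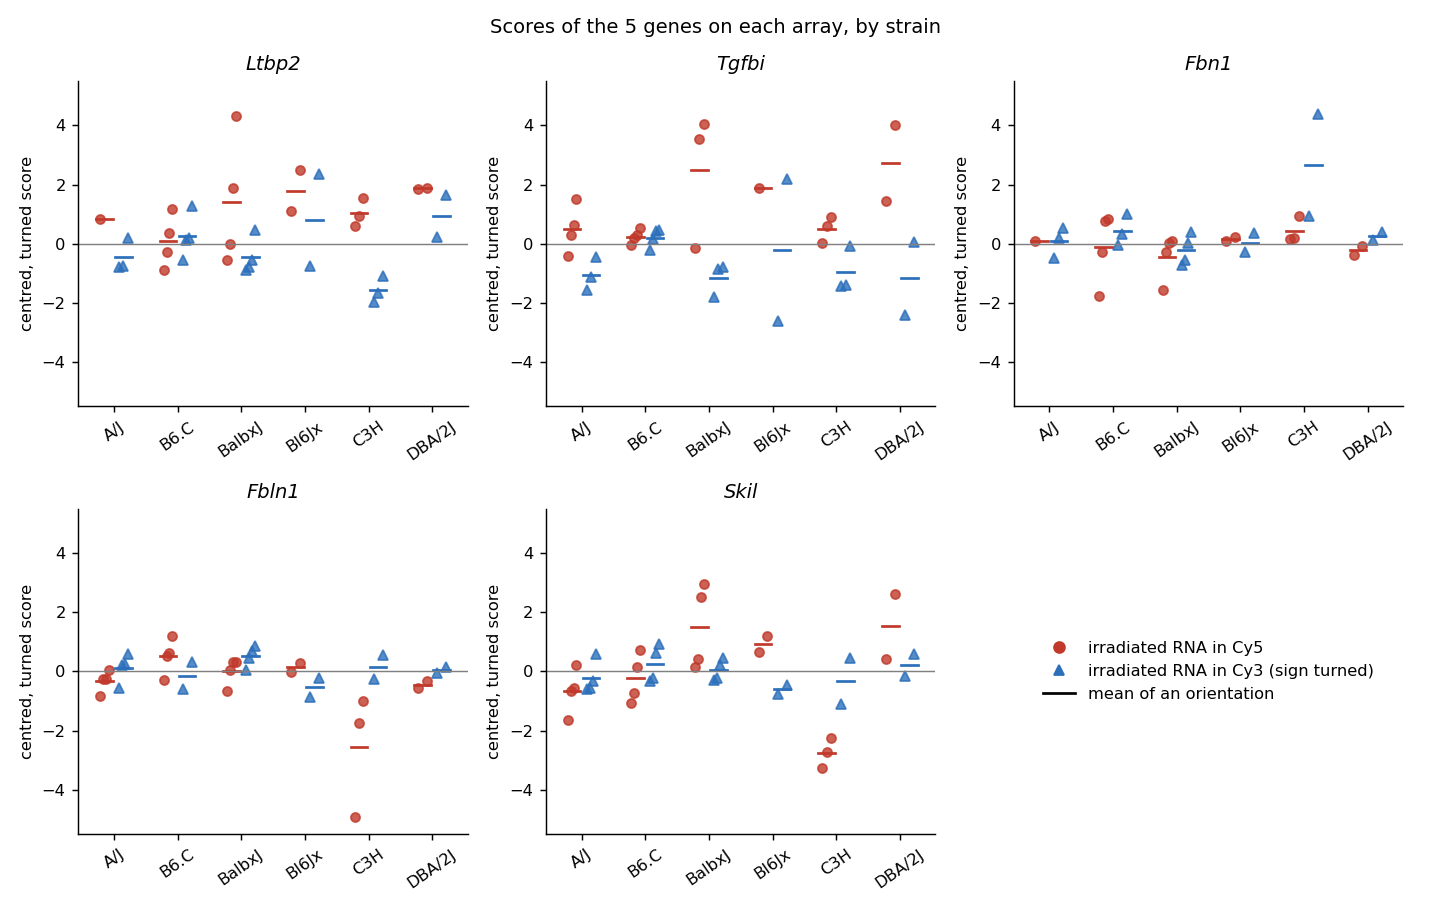
Centred scores, turned in sign where the irradiated RNA carried Cy3 (y axis), for each gene and strain (x axis), with red circles for arrays with irradiated RNA in Cy5, blue triangles for Cy3 and short lines for the mean of an orientation. Ltbp2 and Tgfbi sit higher in Cy5 than in Cy3 arrays in most strains, and the largest excursions of Fbn1 (4.40) and Fbln1 (-4.93) are single C3H arrays.

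With the arrays as labelled, the responses of Fbn1 and Fbln1 lay between -0.32 and 0.25 in all strains but C3H. Fbn1, measured on 32 arrays, scored from -1.78 to 4.40 with a median of 0.12. Its strain responses were 0.09 in A/J, 0.16 in B6.C, -0.32 in BalbxJ, 0.10 in BI6Jx and 0.02 in DBA/2J, against 1.55 in C3H. As for Ltbp2, only 1 A/J array with irradiated RNA in Cy5 had a value. The 5 C3H arrays with a value scored 0.16, 0.18 and 0.93 with irradiated RNA in Cy5 and 0.94 and 4.40 in Cy3, all on the positive side. The response of C3H passed limma's test (SE 0.38, adjusted p = 0.0267). Without array 26, which holds the 4.40, the response was 0.68 with an adjusted limma p of 0.617, and without array 29 it was 1.42 with 0.0571. The fit shares 1 estimate of spread over strains, while the 2 Cy3 scores in C3H had an SD of 2.45. The mean over strains was 0.01 without C3H, in place of 0.27. With the signs of arrays 50, 53 and 97 turned, the mean was 0.36, with 0.61 in B6.C and 0.24 in BI6Jx. Without arrays 34, 35 and 36 it was 0.23, with -0.49 in BalbxJ and -0.06 in DBA/2J.

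Fbln1 was measured on 35 arrays and ran from -4.93 to 1.18 with a median of 0.04, with 18 scores above 0 and 17 below. Strain responses were -0.10 in A/J, 0.19 in B6.C, 0.25 in BalbxJ, -0.20 in BI6Jx, -1.20 in C3H and -0.20 in DBA/2J. In C3H the scores were -0.99, -4.93 and -1.75 in Cy5, and -0.25 and 0.57 in Cy3. The lowest is array 27, without which the C3H response was -0.61. On array 27 that score lay at percentile 5.56 of all probes with a value. The C3H response missed the threshold in limma (SE 0.34, adjusted p = 0.0590), but passed it without array 25 (-1.59, adjusted p = 0.00437) or array 29 (-1.40, adjusted p = 0.0248), and with 1 dye bias fitted for all strains (-1.42, adjusted p = 0.0424). The C3H response did not pass without array 27 (-0.61). With the probes of each array replaced by normal scores of their ranks (-0.51), it did not pass either. Without array 26 it was -0.99 and without array 28 it was -1.40, each leaving a single Cy3 array. The fit shares 1 estimate of spread over strains, while the 3 Cy5 scores in C3H had an SD of 2.09. In BalbxJ 7 of 8 arrays lay above 0, between 0.04 and 0.88, with the exception of array 36 at -0.68. The mean over strains was -0.01 without C3H. With the signs of arrays 50, 53 and 97 turned, it was -0.19, with -0.11 in B6.C and 0.23 in BI6Jx. Without arrays 34, 35 and 36 it was -0.18, with 0.35 in BalbxJ and -0.14 in DBA/2J.

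Skil was the most completely measured gene, with values on 37 arrays, from -3.26 through a median of -0.15 to 2.96. Its response was positive in 4 strains and negative in 2, at -0.44 in A/J, 0.01 in B6.C, 0.78 in BalbxJ, 0.16 in BI6Jx, -1.54 in C3H and 0.87 in DBA/2J. In C3H the 3 Cy5 arrays scored -2.71, -2.27 and -3.26, the 3 lowest of all arrays, and the 2 Cy3 arrays scored -1.11 and 0.45. The C3H response passed limma's test (SE 0.37, adjusted p = 0.0180), and without array 26 it was -1.15 with an adjusted limma p of 0.302. Over all arrays, the turned score of Skil had r = 0.71 (rho = 0.42, n = 37) with the turned sum of the 5th and 95th percentiles of its array, a measure of unequal tails, against r of 0.17 to 0.42 for the other 4 genes. The part of the tails in the C3H result was not tested. In BalbxJ the 8 scores ran from -0.28 to 2.96 with a median of 0.32, and the 2 highest were arrays 35 (2.96) and 36 (2.50). In DBA/2J the scores were 2.62 (array 34) and 0.42 in Cy5 and 0.57 and -0.15 in Cy3. Unadjusted limma p-values were 0.0110 in BalbxJ, where 11.9% of probes had one under 0.05, and 0.0412 in DBA/2J, and adjusted p-values were 0.323 and 0.520. Without arrays 34, 35 and 36 the responses were 0.17 in BalbxJ and 0.32 in DBA/2J, and the mean over strains was -0.22. With the signs of arrays 50, 53 and 97 turned the mean was -0.02, with -0.33 in B6.C and 0.54 in BI6Jx.

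In C3H, where smooth muscle markers had the median of -0.80 given above, whose part was not tested, 2 of the 5 genes passed an adjusted p under 0.05 in limma, as did 361 of 14513 probes (2.49%), and 3 of 5 had an unadjusted p under 0.05 (13.9% of probes). When the probes of each array were replaced by normal scores of their ranks, which removes the unequal tails, 0 of 14513 probes passed in C3H and the adjusted limma p-values were 0.999 for Fbn1 and 0.953 for Skil. In A/J and B6.C, 0 of 5 genes had an unadjusted p under 0.05 in limma (0.889% and 7.48% of probes). The difference between strains was tested by limma's F test, which 105 of 14513 probes passed (0.723%) and none of the 5 genes did. Skil came nearest, with F = 6.32 and an adjusted p of 0.0544, followed by Fbn1 at 0.367, Fbln1 at 0.448, Ltbp2 at 0.573 and Tgfbi at 0.812. At an unadjusted p under 0.05, Skil (0.000405) and Fbn1 (0.0252) passed, against 11.3% of probes. With the signs of arrays 50, 53 and 97 turned, the adjusted limma p of Skil was 0.0332, and with normal scores it was 0.576. With Cy5 arrays only it was 0.0129, but that test cannot separate the response of a strain from its dye bias. In C3H the dye bias of Skil, the part common to both orientations, was -1.21.

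A part of the score was common to both dye orientations, and in 4 of the 5 genes it was larger in size than the response taken over arrays. For Fbn1 it was smaller in size than the mean response over strains (-0.24 against 0.27). Without turning the sign, Ltbp2 averaged 1.09 (SD 1.29, n = 16) on arrays with irradiated RNA in Cy5 and 0.18 (SD 1.12, n = 18) with it in Cy3. It was above 0 on 13 of 16 and on 10 of 18. Tgfbi averaged 1.14 (SD 1.44, n = 17) and 0.67 (SD 1.19, n = 17), above 0 on 14 of 17 and 12 of 17. The common part was therefore 0.63 for Ltbp2 and 0.91 for Tgfbi, against responses over arrays of 0.45 and 0.23. In C3H the Ltbp2 score was above 0 on all 6 arrays before turning, with means of 1.04 in Cy5 and 1.58 in Cy3. The common part was -0.24 for Fbn1, -0.25 for Fbln1 and 0.01 for Skil, against responses over arrays of 0.18, -0.15 and -0.05. Since a response uses both orientations equally, it cancels in it. These means are a description with no test.

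The 5 genes did not move as 1 group over arrays. Ltbp2 and Tgfbi were the closest pair, with Pearson's r = 0.79 and Spearman's rho = 0.78 over 30 arrays that share dye swaps of the same RNA. They correlated in Cy5 arrays (r = 0.79, n = 14) and in Cy3 arrays (r = 0.67, n = 16). After removal of the mean of each strain and orientation r was 0.79, and without arrays 34, 35 and 36 it was 0.70. With normal scores it was 0.55. However, 5.16% of probes had a higher r with Ltbp2 than Tgfbi had, and 12.3% had a higher r with Tgfbi than Ltbp2 had. An r of at least 0.5 with Ltbp2 was found for 28.2% of probes, and for 12.9% with normal scores. For Tgfbi these shares were 28.9% and 23.1%.

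Tgfbi and Skil had r = 0.46 over 33 arrays, which was -0.05 without arrays 34, 35 and 36. Ltbp2 and Skil had 0.29 over 33 arrays, which was -0.09 without them. Both of these relations therefore rest on these 3 arrays. Fbln1 and Skil had 0.40 over 35 arrays and 0.09 without arrays 27 and 29, both of C3H. Fbn1 ran against Skil (r = -0.32 and rho = -0.47 over 32 arrays), in Cy5 (-0.39) as in Cy3 arrays (-0.49), with -0.58 for normal scores. Of all probes, 91.8% had a higher r with Fbn1 than Skil had, and 91.5% had a higher r with Skil than Fbn1 had. Among the other pairs, r was -0.23 for Ltbp2 with Fbn1, -0.29 for Ltbp2 with Fbln1, -0.27 for Tgfbi with Fbn1, -0.20 for Tgfbi with Fbln1 and -0.11 for Fbn1 with Fbln1. The microfibril genes Fbn1 and Fbln1 thus showed little relation to each other over arrays.

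**Figure D3:**
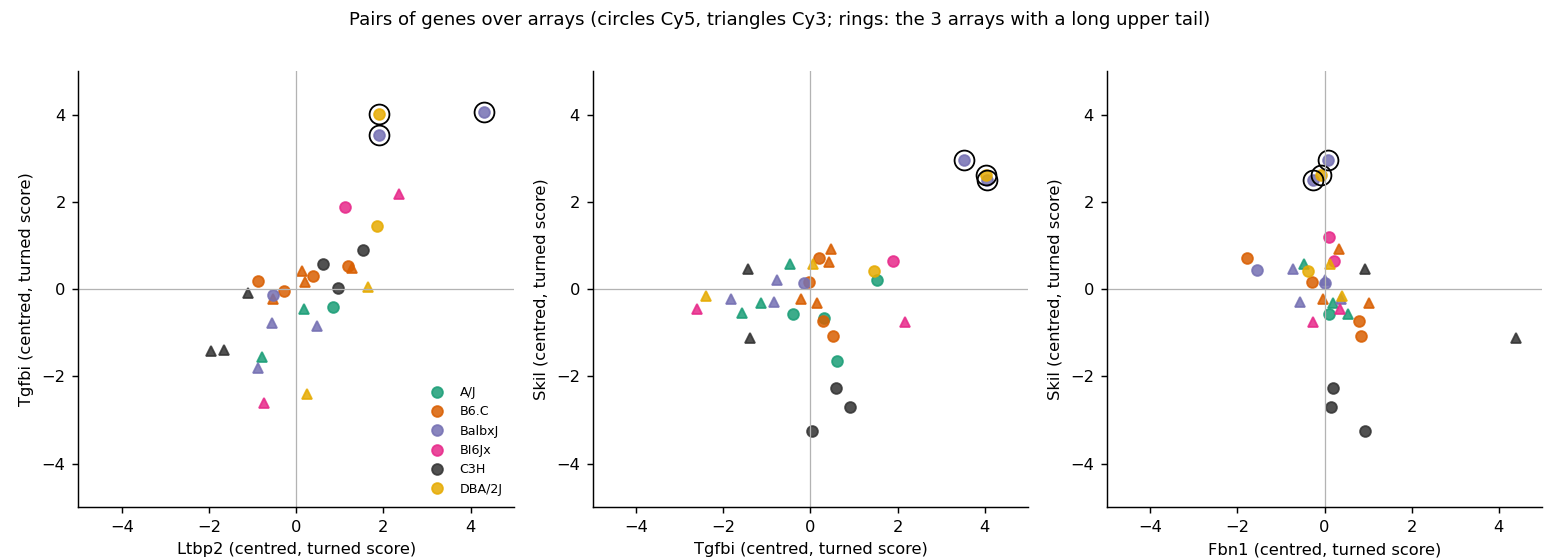
Turned and centred scores of 3 pairs of genes, 1 point per array with both values, coloured by strain, with circles for irradiated RNA in Cy5, triangles for Cy3 and rings around arrays 34, 35 and 36. Ltbp2 and Tgfbi rise together with and without the ringed arrays (r = 0.79 and 0.70), whereas for Tgfbi and Skil r is 0.46 with them and -0.05 without.

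Over the 6 strain responses, 10 pairs of genes were compared by exact permutation of strains. Fbn1 and Skil had r = -0.90 (exact p = 0.0194) and rho = -0.77 (exact p = 0.103), and r = -0.64 without the 2 strains farthest from the median of Fbn1. Ltbp2 and Tgfbi had r = 0.87 (exact p = 0.0403) and rho = 0.77 (exact p = 0.103), with r = 0.77 without the 2 farthest. Tgfbi and Skil had r = 0.84 (exact p = 0.0319) and rho = 0.77 (exact p = 0.103), with 0.54 without 2 strains. Ltbp2 and Skil had r = 0.75 (exact p = 0.0681) and rho = 0.89 (exact p = 0.0333), with r = 0.98 without the 2 farthest. Without arrays 34, 35 and 36, Tgfbi was -0.64 in BalbxJ and 0.14 in DBA/2J, Skil 0.17 and 0.32, and Ltbp2 -0.35 and 1.40. Strain correlations were not computed without these arrays. Fbn1 and Fbln1 had r = -0.94 (exact p = 0.0444), but rho = -0.49 (exact p = 0.356) and r = 0.82 without the 2 farthest strains, so that relation rests on those strains. After Benjamini-Hochberg adjustment over 10 pairs, the lowest exact p was 0.111 for r and 0.257 for rho, and none passed.

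For each gene, the 3 named probes with the highest r over arrays are given, with no test. Nearest to Ltbp2 were Btrc, a substrate receptor of a ubiquitin ligase (r = 0.97, n = 34 arrays), Ap2a1, a subunit of the clathrin adaptor (0.97, n = 34), and Aimp1, a component of the tRNA synthetase complex (0.97, n = 31). With normal scores these were 0.91, 0.94 and 0.91. Nearest to Tgfbi were Lmnb1, a nuclear lamin (0.96, n = 33), Dffb, a DNase of apoptosis (0.95, n = 34), and Grin2b, a glutamate receptor subunit (0.95, n = 31). Their normal scores gave 0.87, 0.85 and 0.88. Fbn1 had more distant neighbours in Vegfb, a growth factor of vessels (0.81, n = 31), Myoc, a secreted glycoprotein (0.72, n = 31), and Hsd17b4, a peroxisomal enzyme (0.71, n = 32), and with normal scores these were 0.69, 0.14 and 0.26. Fbln1 was closest to Ramp3, a receptor accessory protein (0.90, n = 32), Plin2, a lipid droplet protein (0.89, n = 31), and Capn15, a calpain protease (0.89, n = 34), at 0.62, 0.53 and 0.52 with normal scores. Skil was closest to Col10a1, a collagen (0.85, n = 33), Kpnb1, a nuclear import receptor (0.80, n = 32), and Nub1, a regulator of ubiquitin-like proteins (0.80, n = 35). For these, normal scores gave 0.74, 0.61 and 0.62.

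Other genes of the pathway were read from lists by role, and none passed the test over strains. Of 12 tested ligands, latent-form binding proteins and activators, 5 lay above 0 and 7 below, with a median of -0.03. Itgb6, a subunit of an integrin that releases latent TGF-beta, averaged 0.79 (SE 0.27, 5 of 6 strains above 0), Itgav, its partner subunit, 0.54 (SE 0.16, 4 of 4 strains), and Mmp2, a matrix protease, -0.43 (SE 0.22). Itgb6, Itgav and Tgfb2 had an unadjusted limma p under 0.05, 3 of 12 against 7.57% of all probes. Tgfb2, a TGF-beta ligand, averaged -0.31 (SE 0.13) and was below 0 in 6 of 6 strains, and it is named for that p, outside the rule for named genes. In the other lists, 0 of 8 receptors, 1 of 8 Smads and regulators (Smad6) and 1 of 12 target genes (Acta2) had such a p. Of the elastic fibre and other matrix genes, 0 of 6 and 0 of 24 had one. Of 8 receptors, 4 lay on each side, with a median of -0.04. Tgfbr1, the type I receptor, averaged 0.42 (SE 0.27), Acvr2b, an activin receptor, -0.26 (SE 0.15), and Bmpr2, a BMP receptor, -0.15 (SE 0.11). Of 8 Smads and regulators, 2 lay above 0 and 6 below, with a median of -0.16. Fkbp1a, which binds the type I receptor, averaged 0.48 (SE 0.24), Smad6, an inhibitory Smad, -0.45 (SE 0.17, 4 of 4 strains below 0), and Smad9, a BMP Smad, -0.33 (SE 0.25). C3H values of the genes named in these 3 lists were 0.87 for Itgb6, 0.65 for Itgav, 0.33 for Mmp2 and -0.12 for Tgfb2. They were 1.68 for Tgfbr1, -0.08 for Acvr2b, -0.29 for Bmpr2, -0.49 for Fkbp1a and -1.46 for Smad9, with none for Smad6. Means without C3H were not computed for the listed genes.

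Of 12 target genes, 5 lay above 0 and 7 below, with a median of -0.04. Cdkn2b, a cell cycle inhibitor, averaged 0.47 (SE 0.30), with 2.24 in C3H. Tagln and Acta2, both smooth muscle genes, averaged -0.37 (SE 0.20) and -0.35 (SE 0.12), and Acta2 was below 0 in 6 of 6 strains. In C3H, Tagln was at -0.90 and Acta2 at -0.37. Of the 5 tested smooth muscle markers, which include both, 2 lay above 0 (Actg2 at 0.26 and Cnn1 at 0.22, named after their values were seen) and 3 below, with a median of -0.10. The elastic fibre and microfibril list had 6 tested genes, 3 on each side, with a median of 0.02. Mfap2, a microfibril glycoprotein, averaged 0.39 (SE 0.19), Eln, elastin, -0.25 (SE 0.13) and Fbln5, a fibulin of elastic fibres, -0.21 (SE 0.14). In C3H, Mfap2 was at -0.21, Eln at -0.30 and Fbln5 at -0.51. Of 24 other matrix genes, 13 lay above 0 and 11 below, with a median of 0.01. Lamb2 (0.39, SE 0.25) and Lama1 (0.32, SE 0.14), laminin chains of basement membranes, and Bgn, a small proteoglycan (-0.26, SE 0.16), were the furthest from 0. In C3H, Lamb2 was at 1.37, Lama1 at 0.94 and Bgn at -0.49. The list medians lie near that of all tested probes (0.00), of which 49.5% were above 0. Over arrays, the median score of the other matrix genes had r = 0.72 with Fbln1 and -0.46 with Ltbp2, and that of the elastic fibre list had r = 0.59 with Ltbp2 and 0.50 with Tgfbi. The signalling lists also reached 0.4 in size. Receptors had -0.49 with Ltbp2 and -0.47 with Tgfbi, ligands and activators -0.44 with Ltbp2, and Smads and regulators 0.47 with Fbln1 and -0.40 with Tgfbi. Among all single probes, r was at least 0.5 for 28.2% with Ltbp2, 28.9% with Tgfbi, 8.41% with Fbln1 and 8.90% with Skil. It was -0.5 or lower for 10.8% with Ltbp2 and 10.7% with Tgfbi, so values of this size are common for these 2 genes. Over arrays, the median score of a marker list and a gene had an r of at least 0.4 in size in these cases. Fat cell markers had -0.60 with Ltbp2, -0.60 with Tgfbi and 0.43 with Fbln1, B cell markers 0.48 with Ltbp2, erythroid markers -0.45 with Tgfbi, T cell markers 0.43 with Skil and smooth muscle markers 0.42 with Skil. The part of these cell types in the results was not tested.

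**Figure D4:**
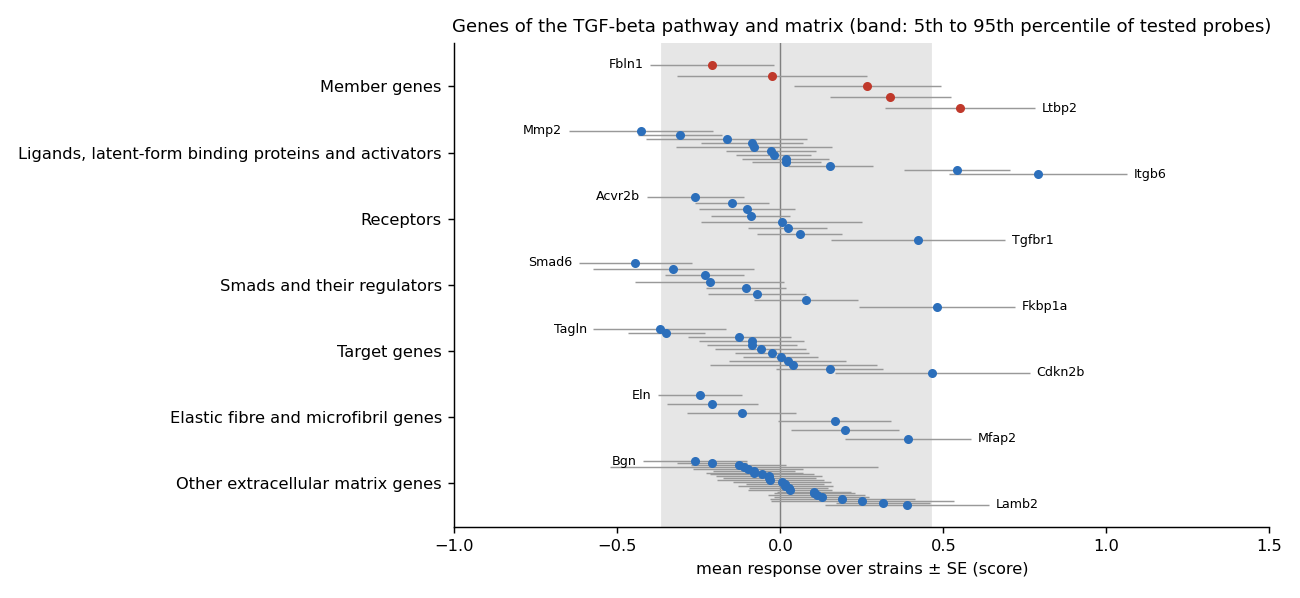
Mean response over strains (x axis, score units) with its standard error for the 5 genes (red) and for each tested gene of 6 pathway and matrix lists (blue, y axis), with a grey band from the 5th to the 95th percentile of tested probes (-0.36 to 0.46) and the lowest and highest gene of each list named. Points scatter on both sides of 0 in every list, and Itgb6 (0.79) lies furthest from 0.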

How the data were processed

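Spleen RNA was hybridised to two-colour Compugen oligonucleotide arrays. By the methods of the study, poor or low spots were removed, local background was subtracted and Lowess normalization was applied. The authors deposited 1 signed score per spot and array, with no stated scale. Spots of 1 probe were averaged, each array was centred on its median, and scores with irradiated RNA in Cy3 changed sign. Probes were named through RefSeq genes of GRCm38.p6. Arrays give 10941 to 19860 probes a value, and their number limits the precision.

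The mean of strain responses was tested against 0 with lmFit and eBayes (limma 3.58.1, R 4.3.3), given a minimum of 19 arrays with a value and 4 strains with both orientations. Strain responses and their differences were fitted over 38 arrays with a dye bias for each strain. Benjamini-Hochberg adjustment covered all probes tested, at a threshold of 0.05. Correlations used scipy 1.17.1 in Python 3.11.15. The design foresaw log ratios, and the scores were used in their place.

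The 5 genes and all lists were chosen with earlier results of these data known. Genes named besides the 5 are, in each pathway list, the 3 tested genes furthest from 0, and, for each of the 5, the 3 named probes with the highest r over at least 30 shared arrays. Centring, scaling, filters, units of replication, weights, dye terms and left-out arrays or strains were varied, and alternatives with normal scores and without arrays 34, 35 and 36 were added after seeing the data.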

Additional observations from a re-analysis of the deposited data

Results flagged for a closer look

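Each gene was examined for a single array standing apart within a strain, over 29 groups of 4 to 8 arrays, of which chance picks out about 1 in 20. Ltbp2 in DBA/2J stood apart on array 70, at a turned score of 0.24 against 1.65 for the nearest of the other 3 arrays. Fbn1 in C3H stood apart on array 26, at 4.40 against 0.94 for the nearest of the other 4. Before turning, this score lay at percentile 4.68 of array 26, whose 5th percentile of centred scores was -4.27.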

How the results depend on the processing

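Over all strains, 0 probes passed in limma under every alternative but the values as deposited, where 22 did. Ltbp2 and Tgfbi stayed positive, Fbn1 positive and Fbln1 negative under all alternatives tried, with none passing. Skil, near 0, was 0.13 as deposited and ran from -0.21 to 0.27 when 1 strain was left out. As deposited, the calls in C3H were 40, with Fbn1 at 1.40 and Skil at -1.69, neither passing, and differences between strains were called for 19 probes. With 1 dye bias for all strains, Fbn1 in C3H was 1.38 and did not pass. With normal scores, calls were 0 in C3H (Fbn1 0.81, Skil -0.81) and 0 for strain differences. With Cy5 arrays only, where differences in dye bias enter the test, calls for strain differences were 1155. With 1 array left out, calls in C3H ran from 284 to 750 (without array 25; 619 without array 29), Fbn1 there from 0.68 to 2.41 and Skil from -1.93 to -1.15. The adjusted limma p of the strain difference in Skil was 0.0332 with the signs of arrays 50, 53 and 97 turned. It was 0.0129 with Cy5 arrays only, a test that does not separate response from dye bias.

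Strain responses that did not pass changed sign as follows. As deposited, BalbxJ gave Ltbp2 -0.19, Tgfbi -0.0042 and Fbln1 -0.43, and DBA/2J gave Fbln1 0.53. With 1 dye bias, Fbn1 in A/J was -0.055. Without arrays 50, 53 and 97, Skil in B6.C was -0.21 and Tgfbi in BI6Jx -0.36, and with their signs turned, B6.C gave Fbln1 -0.11 and Skil -0.33 and BI6Jx gave Tgfbi -0.25 and Fbln1 0.23. With normal scores, Skil in B6.C was -0.13, Tgfbi in BalbxJ -0.18 and Fbn1 in DBA/2J -0.0028. Without arrays 34, 35 and 36, BalbxJ gave Ltbp2 -0.35 and Tgfbi -0.64, and Fbn1 in DBA/2J was -0.057. With 1 array left out, the ranges were -0.18 to 0.010 for Fbln1 and -0.020 to 0.23 for Fbn1 in A/J, -0.040 to 0.41 for Fbln1 and -0.15 to 0.15 for Skil in B6.C, -0.055 to 0.26 for Fbn1 and -0.36 to 2.04 for Tgfbi in BI6Jx, and -0.057 to 0.097 for Fbn1 in DBA/2J. In BI6Jx, leaving out array 95 gave 2.07 for Ltbp2 and 2.04 for Tgfbi, with array 97, whose direction is not settled, as the only Cy3 array. Without array 97 these were 0.53 and -0.36. Leaving out the only array of an orientation gave no value.

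Without centring, each array's own offset enters every gene, and r over arrays was 0.92 for Ltbp2 with Tgfbi, 0.68 with Fbn1, 0.67 with Fbln1 and 0.80 with Skil. For Tgfbi it was 0.65 with Fbn1, 0.65 with Fbln1 and 0.82 with Skil, for Fbn1 0.80 with Fbln1 and 0.72 with Skil, and for Fbln1 with Skil 0.87. With normal scores, Ltbp2 and Tgfbi had 0.55. Without arrays 34, 35 and 36, Skil had -0.085 with Ltbp2 and -0.055 with Tgfbi. With strain and orientation means removed, Ltbp2 and Fbn1 had 0.14 and Fbln1 and Skil -0.14. The causes of these shifts were not tested. No paired analysis was possible because no label ties an array to the pair of mice on it.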
